A study of Mus musculus with 2 samples.

Results

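The far intergenic Runx1 peaks were the peaks whose centre lay outside every protein-coding gene body and more than 50 kb from the nearest protein-coding transcription start site (TSS) of the NCBIM37 (mm9) annotation. This rule placed 790 of the 3531 Runx1 peaks in the set, or 22.4% (95% exact Clopper-Pearson interval 21.0 to 23.8). The rule used position only, and no score, sequence or gene name, but it was itself set with earlier results of these data known. Runx1 binding was mapped by ChIP-seq in thymocytes that were double-positive (DP) for CD4+ and CD8+, the stage at which a developing T cell carries both co-receptors, sorted with Automacs from the thymus of C57BL/6 mice. The first group was the Runx1 ChIP, made with an anti-Runx1 antibody, and the other was the input, made without antibody from the same kind of cells. Each group was 1 SOLiD library after 15 cycles of PCR, so no value below has a replicate check. All intervals and p-values describe peaks of 1 library and cover counting error only, with peaks taken as independent. The read depth is unknown, because the deposited lists hold positions and a score per peak but no read counts.

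Runx1 is a DNA-binding transcription factor that, with its partner CBFβ, recognises the core sequence TGTGGT and is required for the development of T cells in the thymus. Regulatory elements of T-cell genes can lie far from their promoters, in gene-poor stretches of the genome, and act over long distances. Such stretches also hold much of the repeated sequence that transposable elements have left in the mouse genome. Sequence was therefore read for each member, and a member was called single-copy when each stretch of 32 bases in it occurred at 1 place in the genome, counted on both strands, and repeated otherwise. By this measure 332 members were single-copy and 458 were repeated, a split that was chosen after the values had been seen. Tests on this split are therefore descriptive. Of the repeated members, 365 resembled another Runx1 peak in sequence, and such peaks are not independent. Tests over repeated or all members count them as if they were, so their p-values and intervals can understate the error.

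The sequences of the 187-bp peaks below are chosen examples. Of the 11 single-copy peaks shown, 10 held the RUNX motif, against 35.5% of all single-copy members. The first 5 are the single-copy members among the 10 highest scores (106, 94, 73, 73 and 73 in the order given), named by the protein-coding genes on either side. Capitals mark the RUNX motif TGTGGT, which reads ACCACA where it lies on the other strand. Each of the 5 carried 1 or 2 such motifs, and in the peaks beside Atl2 and Slc25a33 both orientations stood within a few bases of each other.
Atl2/Hnrpll, chr17:80364286-80364472, plus strand: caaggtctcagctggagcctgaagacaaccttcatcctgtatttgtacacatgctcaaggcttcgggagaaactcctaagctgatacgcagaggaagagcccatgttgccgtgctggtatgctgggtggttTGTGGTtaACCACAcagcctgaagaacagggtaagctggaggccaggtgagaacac
Prl5a1/Sox4, chr13:28604534-28604720, plus strand: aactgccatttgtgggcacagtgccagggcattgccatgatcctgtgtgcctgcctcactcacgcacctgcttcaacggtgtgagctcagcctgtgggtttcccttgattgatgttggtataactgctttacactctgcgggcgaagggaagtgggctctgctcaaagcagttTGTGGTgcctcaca
Pag1/Fabp5, chr3:9886954-9887140, plus strand: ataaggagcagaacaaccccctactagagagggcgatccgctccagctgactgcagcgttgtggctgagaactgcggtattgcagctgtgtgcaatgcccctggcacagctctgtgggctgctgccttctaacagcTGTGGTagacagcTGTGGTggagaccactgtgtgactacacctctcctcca
Irf2bp2/Tomm20, chr8:129371551-129371737, plus strand: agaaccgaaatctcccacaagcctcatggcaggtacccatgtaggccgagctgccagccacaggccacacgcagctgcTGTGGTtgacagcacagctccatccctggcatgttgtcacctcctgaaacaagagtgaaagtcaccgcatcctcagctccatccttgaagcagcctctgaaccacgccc
Slc25a33/Spsb1, chr4:149230572-149230758, plus strand: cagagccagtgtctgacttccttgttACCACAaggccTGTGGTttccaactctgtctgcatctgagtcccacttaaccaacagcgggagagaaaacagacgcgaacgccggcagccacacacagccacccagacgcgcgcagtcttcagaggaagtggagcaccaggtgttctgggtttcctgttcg

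Of the next 6 peaks, the first 5 had a gene of a T-cell transcription factor as a flanking gene and are shown for these genes, which are central to thymocyte development. They are the highest-scoring single-copy members with the motif beside Hes1, Lef1, Ikzf2, Gata3 and Runx1, with scores of 47, 35, 33, 28 and 23. The last, between Vrk1 and 3110018I06Rik, is the highest-scoring member, at 49, of the intergenic interval that held the most members, and it lay 843 kb from the TSS of Bcl11b. It held no RUNX motif, so none of its letters are in capitals.
Hes1, chr16:30181254-30181440, plus strand: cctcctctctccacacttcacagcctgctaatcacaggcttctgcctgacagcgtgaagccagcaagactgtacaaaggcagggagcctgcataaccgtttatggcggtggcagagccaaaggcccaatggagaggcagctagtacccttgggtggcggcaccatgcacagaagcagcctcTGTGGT
Lef1, chr3:130650293-130650479, plus strand: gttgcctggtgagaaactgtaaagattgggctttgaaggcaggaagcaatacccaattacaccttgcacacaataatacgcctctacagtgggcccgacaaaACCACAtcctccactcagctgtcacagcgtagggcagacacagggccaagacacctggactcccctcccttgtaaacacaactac
Ikzf2, chr1:69815431-69815617, plus strand: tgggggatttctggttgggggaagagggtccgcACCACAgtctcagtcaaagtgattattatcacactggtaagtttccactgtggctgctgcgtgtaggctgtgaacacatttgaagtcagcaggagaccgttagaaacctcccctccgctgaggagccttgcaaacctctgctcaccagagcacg
Gata3, chr2:9515682-9515868, plus strand: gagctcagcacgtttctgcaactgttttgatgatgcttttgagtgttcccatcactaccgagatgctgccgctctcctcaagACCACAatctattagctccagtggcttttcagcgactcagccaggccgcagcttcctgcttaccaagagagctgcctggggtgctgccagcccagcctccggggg
Runx1, chr16:93153181-93153367, plus strand: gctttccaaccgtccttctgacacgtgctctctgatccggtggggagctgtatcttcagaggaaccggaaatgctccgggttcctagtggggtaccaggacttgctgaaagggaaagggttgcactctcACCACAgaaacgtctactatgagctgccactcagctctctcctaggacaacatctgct
Vrk1/3110018I06Rik, chr12:108398389-108398575, plus strand: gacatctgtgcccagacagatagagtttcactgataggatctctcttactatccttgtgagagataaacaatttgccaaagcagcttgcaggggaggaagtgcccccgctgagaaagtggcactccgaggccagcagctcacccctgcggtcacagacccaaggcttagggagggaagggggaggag

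The last 4 peaks are repeated members, chosen after their values were seen as high-scoring members of large families with 1 run of exactly 32 single-copy stretches. They are not typical, since 132 of the 458 repeated members (28.8%) had such a run and 222 had 2 or more runs, and the median score of repeated members was 21. In each, the capital marks the only base that is covered by all stretches of 32 bases found at a single place in the genome. The first pair aligned to each other over 186 bp at 93.5% identity, and the second pair over 117 bp at 88.0%. The scores of these 4 members were 129, 42, 94 and 59, and none of the 4 held a RUNX motif.
1110059M19Rik/Actrt1, chrX:42824602-42824788, plus strand: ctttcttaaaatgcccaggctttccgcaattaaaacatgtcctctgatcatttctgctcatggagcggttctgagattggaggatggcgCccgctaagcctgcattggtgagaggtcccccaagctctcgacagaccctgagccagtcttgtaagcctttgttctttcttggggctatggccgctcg
Tlr5/Gm8214, chr1:185389792-185389978, minus strand: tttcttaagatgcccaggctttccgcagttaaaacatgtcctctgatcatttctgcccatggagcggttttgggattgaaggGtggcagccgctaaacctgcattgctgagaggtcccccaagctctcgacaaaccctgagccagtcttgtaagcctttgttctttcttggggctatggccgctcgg
Anxa1/Aldh1a1, chr19:20534224-20534410, plus strand: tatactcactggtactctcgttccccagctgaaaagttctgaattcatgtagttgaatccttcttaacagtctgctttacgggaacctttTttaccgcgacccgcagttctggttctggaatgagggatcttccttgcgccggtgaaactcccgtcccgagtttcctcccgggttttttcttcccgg
Ube2e2/Gm2244, chr14:19844951-19845137, plus strand: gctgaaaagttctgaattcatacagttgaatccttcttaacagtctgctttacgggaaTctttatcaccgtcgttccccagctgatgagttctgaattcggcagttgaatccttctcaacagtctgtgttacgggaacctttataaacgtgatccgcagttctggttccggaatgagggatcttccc

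Far intergenic sequence took up 39.2% of the sequenced bases of chromosomes 1 to 19, X and Y, or 1003 of 2559 Mb. Members therefore stood at 0.788 per Mb of far sequence, against 1.76 peaks per Mb elsewhere. Single-copy members stood at 0.331 per Mb, against 1.38 single-copy peaks per Mb elsewhere. Densities of single-copy peaks, here and by chromosome below, are per Mb of all sequenced bases. These include repeated bases, where no single-copy peak can lie, and the share of such bases was not measured. In the input library, 397 of 740 peaks (53.6%, interval 50 to 57.3) met the same rule. The median distance of a member from the nearest protein-coding TSS was 154 kb. The farthest member, at chr1:104612527-104612713, lay 2052 kb from the TSS of Cdh20, which encodes a cadherin, and was single-copy with a RUNX motif. The 3 members nearest to the limit lay 50127, 50164 and 50221 bp from a TSS, with scores of 26, 16 and 16. The 3 intergenic peaks just outside it lay at 49741, 49737 and 49668 bp, with scores of 23, 16 and 35. Counting genes of every type in the annotation, instead of protein-coding genes only, left 519 members, or 14.7% of the list. A transcribed non-coding gene or pseudogene covered 39 members, most often a processed transcript (21 members) or a lincRNA (14 members). Among these were 2 single-copy members without the motif, with scores of 18 and 21, inside Gfi1, a transcriptional repressor of thymocytes that codes for a protein but that this annotation types as a processed transcript. They are therefore in the set although they lie in a coding gene, and Gfi1 is missing from the counts of flanking T-cell genes below. Another single-copy member, with the motif and a score of 23, lay 14989 bp from 1 of these 2 and may owe its place in the set to this typing as well.

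Members were found on all 21 chromosomes that held a peak, at uneven density. Chromosome 2 had 1.20 members per Mb of far sequence and the highest density of single-copy members, at 0.719 per Mb. Chromosome 14 had 0.620 members per Mb, of which 0.100 were single-copy. Chromosome X had 48 members, of which 3 were single-copy, at 0.0380 per Mb. Chromosome X also held 89 far peaks of the input list. On chromosome Y there were 67 such input peaks and 2 members.

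Single-copy members carried the RUNX motif more often at their centre than in neighbouring sequence. The motif lay within 100 bp of the centre in 118 of 332 single-copy members (35.5%, interval 30.4 to 41.0), and in 55 windows of the same length centred 1 kb away (16.6%). This difference passed an exact two-sided McNemar test (p = 4.3e-08), on a split of members that was chosen after the values were seen. Repeated members held the motif in 35 of 458 cases (7.64%, interval 5.38 to 10.5) at the centre and in 53 windows (11.6%) 1 kb away (p = 0.05, exact McNemar test). The intervals of the single-copy and repeated members did not overlap. Over all 790 members the share was 153 (19.4%, interval 16.7 to 22.3) at the centre and 13.7% 1 kb away (p = 0.0023, exact McNemar test), beside 26.5% at the centre of all Runx1 peaks. The 397 far peaks of the input library, made without antibody, held it in 17.4% (interval 13.8 to 21.5) at the centre and 11.1% 1 kb away, a gap of like size, and their interval at the centre overlapped that of the members. The difference between centre and flank over all members is therefore not shown to be particular to the Runx1 library. The comparison is limited by the make-up of the sets. Of these input peaks 92.7% were repeated, against 58% of members, and their mean GC content was 42.3% against 52.6%. This difference over all members was no longer called when the limit was set at 100 kb (16.3% against 13.5%, exact p = 0.21) or among the members in the upper quartile of score (18.7% against 14.1%, exact p = 0.17).

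**Figure D1:**
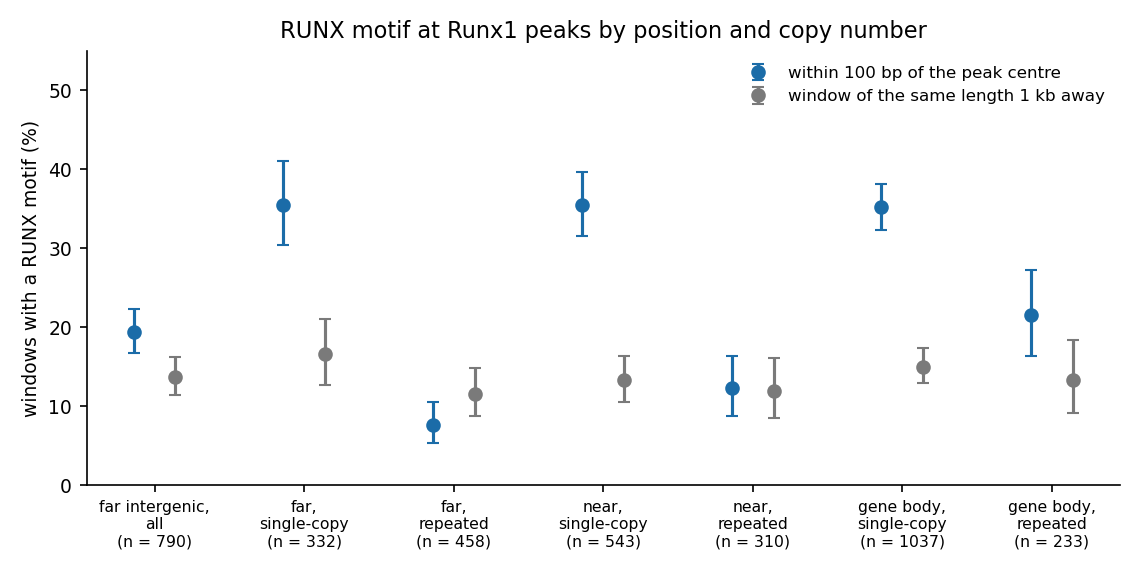
Share of windows with a RUNX motif (per cent, y axis) at the centre of Runx1 peaks (blue) and 1 kb away (grey), for far intergenic, near intergenic and gene-body peaks split by copy number (x axis); points are shares and bars are exact 95% intervals. The single-copy groups sit at 35.5%, 35.5% and 35.2%, and the far repeated members at 7.64%, below their own flanking windows.

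Compared with other peaks, far members as a whole held the motif less often, and no such difference was called among single-copy peaks. The motif was present in 28.5% of all other Runx1 peaks and in 27.1% of the 853 near intergenic peaks, which lay outside gene bodies at more than 1 and up to 50 kb from a TSS. Both differences from the 19.4% of members passed Fisher's exact test, two-sided (adjusted p = 1.0e-06 and 3.5e-04, Benjamini-Hochberg over the 12 comparisons of members with other peaks). Restricted to single-copy peaks, the shares were 35.5% of far members, 35.5% of near intergenic peaks and 32% of all other peaks, and neither difference was called (adjusted p = 1 and 0.5, Fisher's exact test). The difference from near intergenic peaks was also lost when peaks with a repeated centre were left out (24.1% against 29.6%, adjusted exact p = 0.058) and at a limit of 25 kb (22.3% against 25.5%, adjusted exact p = 0.17). Among repeated peaks the shares were 7.64% in far members, 12.3% near genes (interval 8.82 to 16.4) and 21.5% in gene bodies (interval 16.4 to 27.3).

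The motif was concentrated at the centre of single-copy members. In the 2 bins of 50 bp that met at the centre there were 13.3 motifs per 100 members each, against 2.11 to 6.02 in the bins more than 150 bp away. The bins at 50 to 100 bp were unequal, with 11.7 on 1 side and 5.72 on the other. Bins count motifs, so a member with several motifs adds more than 1. Of the 118 single-copy members with the motif, 98 held 1 and 20 held 2 or more, up to 6. The motif nearest to the centre lay at a median of 32.5 bp from it and within 50 bp in 78 members (66.1%). Around repeated members, motif density stayed between 0.873 and 3.06 per 100 members within 200 bp of the centre and reached 6.11 in a bin farther out.

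**Figure D2:**
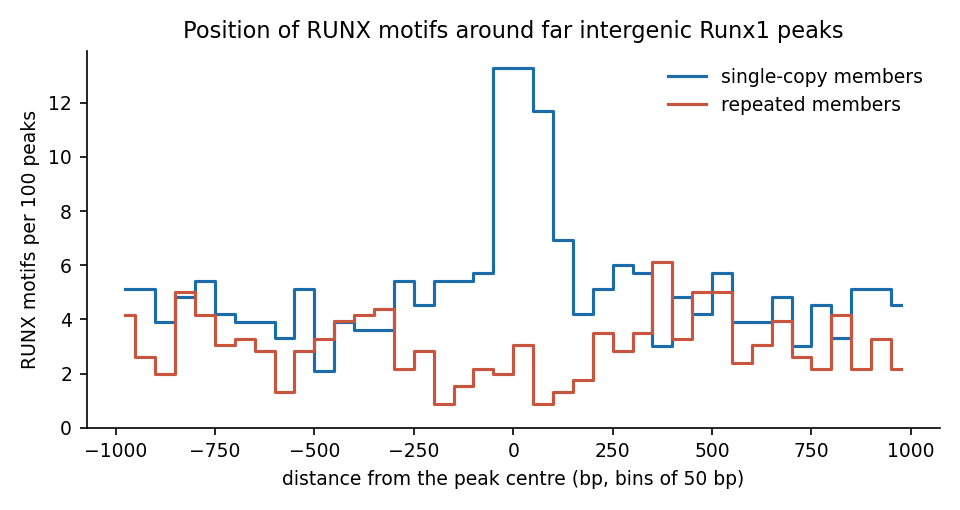
RUNX motifs per 100 peaks (y axis) in bins of 50 bp by distance from the peak centre (bp, x axis), for single-copy (blue) and repeated (red) far intergenic members. The blue line rises to 13.3 at the centre, and the red line stays at or below 3.06 there.

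Motifs of other lymphoid factors were counted in the same windows and on both strands. The E-box CAGCTG, a sequence bound by E proteins such as E2A and HEB, was present at the centre of 20.1% of members and in 10.4% of the windows 1 kb away (adjusted p = 8.9e-08 over 3 motifs, exact McNemar test). The ETS motif GGAAGT was present in 14.9% and 9.11% (adjusted p = 5.2e-04, exact McNemar test). The GATA motif AGATAA was less frequent at the centre, at 8.61% against 14.9% (adjusted p = 5.6e-05, exact McNemar test). In single-copy members, the E-box reached 28.0% at the centre against 10.8% in the flank, and the ETS motif 16% against 9.04%, and both differences passed the test, which the GATA motif (6.63% against 10.8%, exact p = 0.07) did not. In repeated members, the E-box stood at 14.4% against 10% (p = 0.033), the ETS motif at 14.2% against 9.17% (p = 0.027) and the GATA motif at 10% against 17.9% (p = 2.2e-04, exact McNemar tests, not adjusted). The tests in single-copy and in repeated members rest on a split chosen after the values were seen. Those in repeated members also count peaks of related sequence as independent. Near intergenic and gene body peaks, for which no test was run, showed the same directions. The E-box was present in 20.9% of near intergenic peaks against 11.1% in the flank and in 24.8% of gene body peaks against 11.8%, the ETS motif in 18.9% against 11.1% and 19.9% against 12%, and the GATA motif in 6.57% against 10.4% and 5.91% against 10.6%. The E-box was present in 33.9% of the single-copy members with a RUNX motif (interval 25.4 to 43.2) and in 24.8% of those without (interval 19.1 to 31.1). The ETS motif was present in 12.7% with and 17.8% without a RUNX motif, and the GATA motif in 9.32% and 5.14%. For each of the 3 motifs the intervals overlapped. The GC content of members was 52.6% ± 4.31 (SD over peaks), below the 55% ± 4.85 of all other peaks (adjusted p = 2.4e-05, permutation test, two-sided) and the 53.4% ± 4.25 of near intergenic peaks (adjusted p = 2.0e-04). Among single-copy peaks the difference from all other peaks was called (54% against 55.8%, adjusted p = 1.2e-04, permutation test). That from near intergenic peaks was not (54% against 54.6%, adjusted p = 0.12, permutation test).

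Far members held repeated sequence more often than the other peaks. The central 32 bases occurred at several places in the genome in 201 members (25.4%), against 7.77% of all other peaks and 15.2% of near intergenic peaks, and both differences were called (adjusted p = 2.9e-35 and 1.2e-06, Fisher's exact test). Over all Runx1 peaks the share was 11.7%. Some 32 bases anywhere in the peak were repeated in 58.0% of members, against 29.7% of all Runx1 peaks, 36.3% of near intergenic peaks, 18.3% of gene-body peaks and 7.77% of peaks within 1 kb of a TSS. In the input library, 368 of the 397 far peaks (92.7%) were repeated by the same measure. Repeated members made up 43.7% of the members at 50 to 100 kb from a TSS and 84.9% of those beyond 500 kb.

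Repeated members varied in how much of their sequence was repeated, with a median of 79.5% and a lower quartile of 54.5% of their 32-base stretches. The most frequent 32 bases of a repeated member had a median of 1265 copies, and 392 of the 458 (85.6%) held 32 bases with 100 or more copies, while 40 held none with 10 or more. Only 10 were repeated along their whole length. In 132 repeated members (28.8%) the single-copy 32-base stretches formed 1 run of exactly 32, so that all of them shared a single base. Such a run was present in 20.3% of repeated near intergenic peaks and 17.2% of repeated gene-body peaks. The shared base lay at a median of 12.5 bp from the peak centre and within 50 bp in 129 of the 132 members. Averaged over the repeated members, 56.1% had single-copy sequence at the centre, against 25.3% and 22.7% at the edges. The study's methods state, in the section on RNA-seq alignment, that reads with several placements were rejected in all experiments. Whether this covers the Runx1 ChIP library is not stated in the sources used here, and the part of read placement in these values was not tested.

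**Figure D3:**
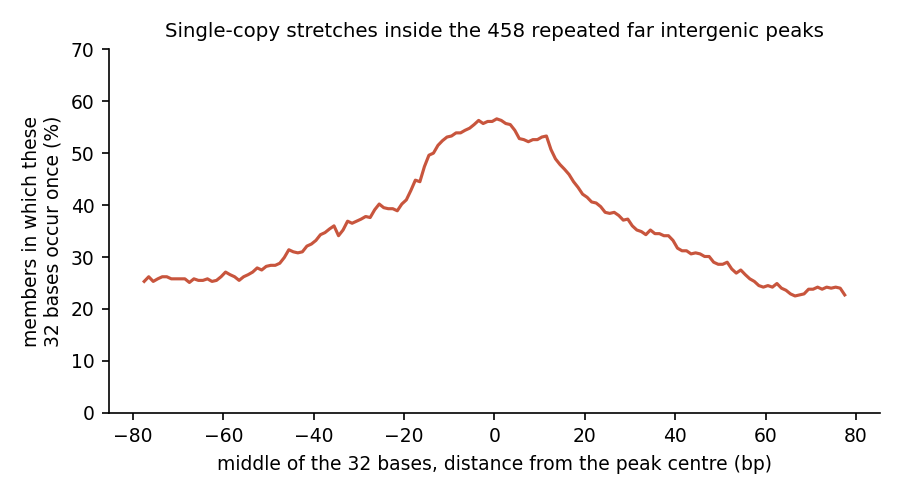
Share of the 458 repeated members (per cent, y axis) in which a stretch of 32 bases occurs at 1 place in the genome, by distance of its middle from the peak centre (bp, x axis). The share is 56.1% at the centre and falls to 25.3% and 22.7% at the edges of the peaks.

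Many repeated members resembled each other. When all Runx1 peaks were linked by alignments of at least 100 bp at 80% identity or more, 365 members (46.2%) fell in a family with at least 1 other peak, against 12.7% of the other peaks. All 365 were repeated members. Links form chains, so peaks of a family need not align to each other. The largest family had 209 peaks, of which 120 were members on 20 chromosomes, with a median score of 26, and 1 of the 120 held a RUNX motif. The second held 162 peaks, 90 of them members on 19 chromosomes, with a median score of 23, and 3 of those 90 held the motif. The repeated members with the most copies of their central 32 bases were at chrX:47443377-47443563, with 11610 copies, and at chr13:28882233-28882419 between Prl5a1 and Sox4, with 5676 copies. Their scores were 16 and 21.

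The deposited score is a whole number whose meaning the files do not name, so it was used only to rank peaks within the list. Members had scores from 14 to 129 with a median of 18. The mean log2 score was 4.43 ± 0.541 (SD over peaks), above the 4.33 ± 0.466 of all other peaks (adjusted p = 2.4e-05, permutation test, two-sided) and the 4.37 ± 0.508 of near intergenic peaks (adjusted p = 0.034). These differences were not called among single-copy peaks, where the means were 4.29 for far members, 4.29 for all other peaks and 4.31 for near intergenic peaks (adjusted p = 1 for both, permutation test). Without the peaks that overlapped an input peak, the difference from near intergenic peaks was 0.0503, close to the 0.0576 with them, and was not called (adjusted p = 0.063, permutation test). Repeated members had a mean log2 score of 4.54 and a median score of 21, against 4.29 and 16 for single-copy members.

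Repeated sequence and, among single-copy members, the motif were both more frequent at higher scores, though not at each step between bands. Repeated members made up 41.1% of those with scores of 14 to 16, 60.3% at 17 to 18, 66.9% at 19 to 26, 76.1% at 27 to 49 and 71.9% at 50 or above. Among single-copy members, the motif was present in 27.4% of those at 14 to 16, 25% at 17 to 18, 49.1% at 19 to 26, 56.4% at 27 to 49 and 8 of 9 at 50 or above. Single-copy members above their median score held the motif in 45.1% of cases, against 27.4% of those at or below it (p = 8.6e-04, Fisher's exact test, two-sided). The split into single-copy and repeated members had been chosen after the values were seen. Over all members the same comparison gave 19.2% and 19.5% (p = 0.93, Fisher's exact test).

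**Figure D4:**
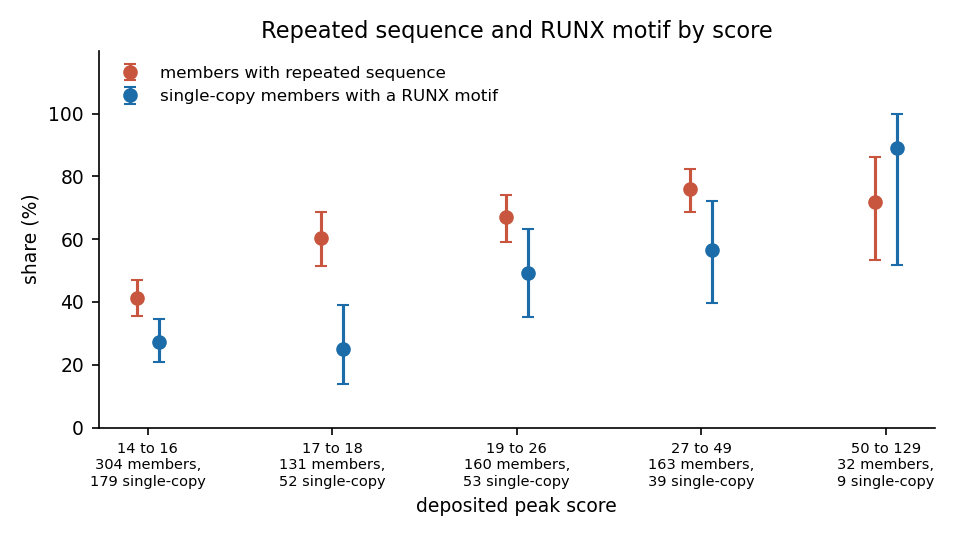
Share (per cent, y axis) of members that were repeated (red, of all members) and of single-copy members with a RUNX motif (blue) in bands of the deposited score (x axis, with the number of members under each band); bars are exact 95% intervals. Repeated members rise from 41.1% to 76.1% between the lowest and the second highest band and stand at 71.9% in the highest; the motif in single-copy members stands at 27.4%, 25%, 49.1%, 56.4% and 88.9%.

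The 10 highest scores fell into these 2 kinds of members in equal number. The 5 single-copy members all carried the RUNX motif. They lay between Atl2 and Hnrpll, an RNA-binding protein that controls the splicing of Cd45 in T cells, between Prl5a1 and Sox4, 53.4 kb from the TSS of Pag1, an adaptor that recruits the kinase Csk, 98.1 kb from Tomm20 on the side of Irf2bp2, a transcriptional co-repressor, and 50.7 kb from Spsb1. The other 5 were repeated and carried no motif, and 3 of them overlapped an input peak. Overlap with an input peak occurred at 18 members (2.28%), all repeated, with scores of 16 to 94 and a median of 45.5. The share of all other peaks was 0.620% (adjusted p = 2.5e-04, Fisher's exact test) and that of near intergenic peaks 1.17% (adjusted p = 0.11). With genes of every type counted, the first of these differences was no longer called (1.54% against 0.896%, adjusted exact p = 0.30).

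Members beside genes of T-cell transcription factors were mostly single-copy. Genes of a list of such factors flanked 34 members (4.30%), the nearest protein-coding gene on either side being counted. These were 31 of the 332 single-copy members (9.34%), of which 17 held a RUNX motif, and 3 of the 458 repeated members (0.655%). The same flanks took up 1.91% of far sequence, and held 1.01% of far input peaks, 2.23% of near intergenic peaks and 2.18% of all Runx1 peaks. These peak shares pool single-copy and repeated peaks. They therefore compare with the 4.30% of all members and not with the 9.34% of single-copy members. With the lists of T-cell receptor and signalling genes and of receptors and survival genes, 45 members (5.70%) were flanked by 19 T-cell genes, beside 5.04% of near intergenic peaks and 4.16% of all Runx1 peaks. The receptor and signalling genes alone flanked 0.380% of members, beside 1.99% of near intergenic peaks and 1.13% of all Runx1 peaks, and took up 0.417% of far sequence. Neuronal genes, a list chosen for contrast, flanked 35 members (4.43%), of which 5 were single-copy and 30 repeated, and took up 6.82% of far sequence. They flanked 5.04% of far input peaks, 0.234% of near intergenic peaks and 1.16% of all Runx1 peaks. B-cell genes flanked 2 members (0.253%), beside 0.234% of near intergenic peaks and 0.227% of all Runx1 peaks, and took up 0.155% of far sequence. Myeloid genes flanked 0 members, beside 0.352% of near intergenic peaks and 0.198% of all Runx1 peaks, and took up 0.0623% of far sequence. These shares are descriptions, and no test of enrichment was run. The gene lists were chosen with earlier results of these data known.

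**Figure D5:**
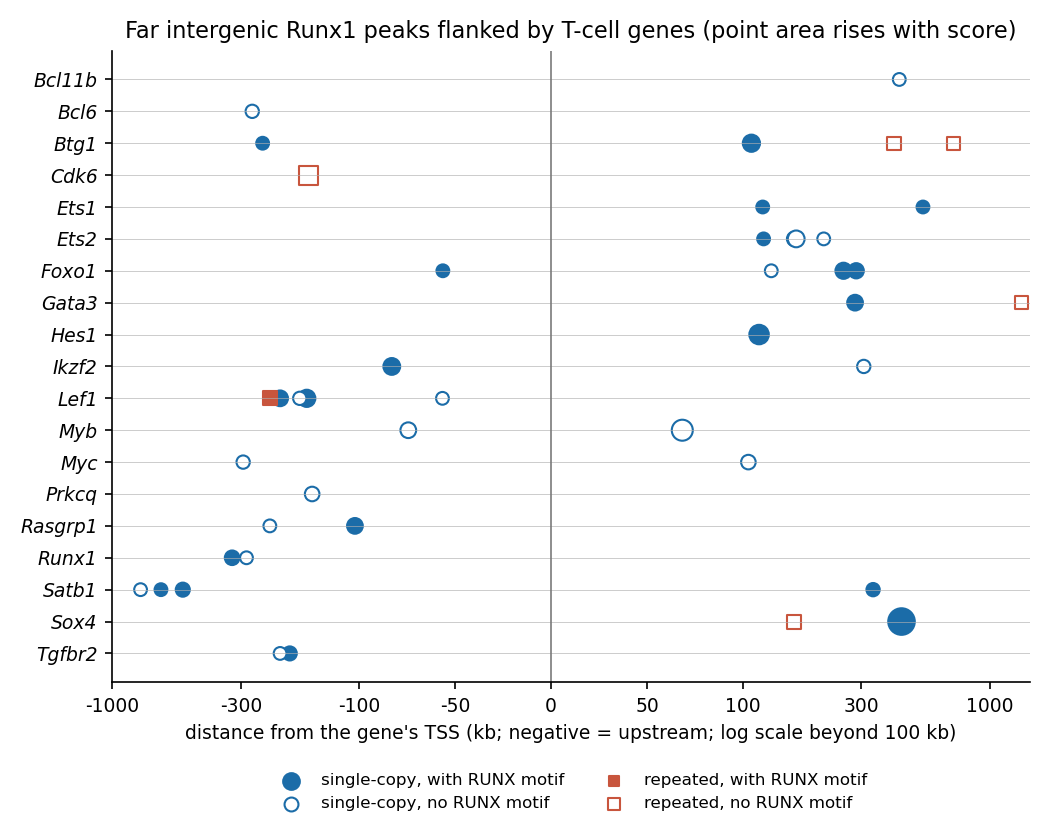
Distance of 45 members from the TSS of the T-cell gene that flanks them (kb, x axis, negative upstream, linear to 100 kb and logarithmic beyond), with 1 line per gene (y axis); circles are single-copy and squares repeated members, filled symbols hold a RUNX motif and the area rises with score. The member 438 kb from Sox4, with a score of 94, is the largest point, and 38 of the 45 points are circles.

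The highest score among these was that of the member at chr13:28604534-28604720, 438 kb downstream of the TSS of Sox4, an HMG-box factor of early lymphoid cells. The TSS of Prl5a1 was nearer to it, at 370 kb. The member had a score of 94 and lay in the lincRNA gene 2610307P16Rik. The other member beside Sox4, 161 kb from the TSS, was repeated, had a score of 21 and held no motif. Both members beside Myb, which encodes a factor that thymocytes need for survival, were single-copy without the motif. The first lay 68.3 kb downstream of the TSS with a score of 56, and the other 74.4 kb upstream with a score of 28. Hes1, a repressor induced by Notch signalling, had 1 member 116 kb downstream with a score of 47 and the motif. A flanking gene was not always the gene with the nearest TSS. Another gene had the nearest TSS for each member beside Satb1, Myb, Hes1, Ikzf2, Bcl6 and Bcl11b. The same held for some members beside Sox4, Lef1, Foxo1, Ets2 and Btg1. Which gene a member acts on was not tested.

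Several genes were flanked by a group of members. Lef1, an HMG-box factor of the TCF family, had 5 upstream members at 56.6 to 229 kb, of which 4 were single-copy and 3 held the motif, with scores from 16 to 35. Satb1, which organises chromatin in thymocytes, had 4 single-copy members between 336 and 768 kb on both sides, 3 of them with the motif and with scores of at most 21. The TSS nearest to these members was that of Tbc1d5 or Kcnh8. Foxo1 had 4 single-copy members at 56.4 to 287 kb, of which 3 held the motif, with scores up to 30. Ets2 had 4 single-copy members at 121 to 212 kb, of which 2 held the motif, and Ets1 had 2 single-copy members with the motif at 120 and 535 kb, both with a score of 16.

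The genes of the factors Gata3, Ikzf2, Runx1, Myc, Bcl6 and Bcl11b had 1 or 2 members each. The Gata3 members lay 284 and 1343 kb downstream, with scores of 28 and 18, and the nearer was single-copy with the motif. Ikzf2, which encodes Helios, had a member 83.0 kb upstream with the motif and a score of 33, and a second 308 kb downstream without it and with a score of 18. Runx1 itself had 2 single-copy members 286 and 327 kb upstream, with scores of 16 and 23, and the latter held the motif. The members of Myc lay 295 kb upstream and 105 kb downstream, had scores of 18 and 23 and held no motif, and the downstream one lay in the lincRNA gene Pvt1. Among the signalling genes, Rasgrp1, an activator of Ras below the T-cell receptor, had 2 single-copy members 104 and 230 kb upstream with scores of 28 and 16, and Prkcq, which encodes protein kinase C theta, had 1 with a score of 23. Btg1 had 4 members, Tgfbr2 and Cdk6 had 2 each, and both members beside Cdk6 were repeated.

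Members were spread over 555 of the 3862 intergenic intervals that held far sequence. Of these, 406 held 1 member, 98 held 2 and 51 held 3 or more. The interval with the most members was the gap of 1411 kb between Vrk1 and 3110018I06Rik on chromosome 12, which held 10, all single-copy. This gene-poor stretch lies on the downstream side of Bcl11b, a zinc finger factor required for T-lineage commitment, and is known as the site of distal enhancers of that gene. The 10 members lay 792 to 1864 kb from the TSS of Bcl11b. Their scores were 16 in 5 members, 18 in 2, and 21, 44 and 49 in the others, and the motif was present in 3 with a score of 16. Of these 3, 1 lay in the processed transcript gene 4933406K04Rik and 1 in Gm16084. A further single-copy member, with a score of 16 and no motif, lay between 3110018I06Rik and Bcl11b, 429 kb from the TSS.

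The next intervals by number of members differed in their share of single-copy members. The gap of 4283 kb between Cntnap5b and Cdh20 on chromosome 1 held 7 members, 2 of them single-copy and 1 with the motif, with scores of 16 to 26. Between Tmprss15 and Ncam2 on chromosome 16 there were also 7, of which 1 was single-copy and 1 held the motif, with scores of 16 to 61. The gap from Gm10110 to Pcdh9 on chromosome 14 held 5 members, of which 1 was single-copy and 0 held the motif. The gap from Sall3 to Galr1 on chromosome 18 also held 5, of which 4 were single-copy and 1 held the motif, with scores of 16 to 51. Another 4 intervals, of 341 to 555 kb, were tied with these last ones at 5 members. They were the gaps between Uaca and Gm10655 (5 single-copy members, scores of 18 to 30), Rpl34 and Lef1 (4 single-copy), Irf2bp2 and Tomm20 (4 single-copy, scores of 16 to 73) and C230091D08Rik and Snrpn (0 single-copy, scores of 16 to 28). At 7.35 members per Mb of far sequence, the Vrk1 interval, of 1411 kb, lay above the first 4 of these gaps (1379 to 4283 kb, 1.63 to 3.97 per Mb) and below the other 4 (11.5 to 19.8 per Mb).

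Close neighbours within 10 kb did not pass the test between far members and other peaks. Another Runx1 peak lay within 10 kb of 122 members (15.4%), against 13.2% of all other peaks and 17.1% of near intergenic peaks (adjusted p = 0.12 and 0.39, Fisher's exact test), and 13.7% of all Runx1 peaks. Within 5 kb the share was 12.7%, above the 7.48% of all other peaks (adjusted p = 2.8e-05, Fisher's exact test), while the difference from the 10.8% of near intergenic peaks was not called (adjusted p = 0.25). The 10 kb result depended on the settings. Against all other peaks it was called at limits of 25 kb (16% against 12.7%, adjusted exact p = 0.016) and 100 kb (17.6% against 13%, adjusted exact p = 0.0079). In the upper quartile of score, members fell below near intergenic peaks (18.7% against 28.8%, adjusted exact p = 0.011). Within 10 kb, the share was 19.9% (interval 16.3 to 23.8) in repeated members and 9.34% (interval 6.43 to 13.0) in single-copy members. Members formed 48 pairs and 8 groups of 3 when those within 10 kb of each other were joined, and 670 stood alone. In 6 of the 8 groups of 3 all members were repeated. The exceptions were a group of 3 single-copy members between Lrrc8c and Lrrc8d on chromosome 5, with scores of 18, 30 and 28, and a group between Irf2bp2 and Tomm20 on chromosome 8 with 2 single-copy members and scores of 21, 21 and 16.

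Inside the antigen receptor loci there were 9 members. This annotation gives most variable gene segments there a gene type of their own, but types a few, such as Igkv1-115 and Ighv1-73, as protein-coding. Of the 9 members, 6 lay in the immunoglobulin kappa locus on chromosome 6, 2 in the heavy chain locus on chromosome 12 and 1 beside Dad1 on chromosome 14, at the T-cell receptor alpha locus. All 9 were repeated, their scores were 16 to 26, and 2 held the motif.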

How the data were processed

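From DP thymocytes, 1 Runx1 ChIP and 1 input library were used. The lists that the authors deposited give each peak a position and a whole-number score of unnamed meaning. Per the submitters' processing notes, HOMER was used and positions are on mm9; the aligner and the calling of peaks on input are not given in the sources used here. The members and the gene lists were chosen with earlier results of these data known. Of 145 genes on the T-cell lists, 140 matched a protein-coding gene. A member inside a gene of the other types, such as Gfi1, counted as intergenic under the rule. Peaks were placed by their centre against the GENCODE vM1 annotation of NCBIM37, in 1-based coordinates. Motifs were sought on both strands within 100 bp of the centre, and in a window of the same length 1 kb to 1 side, alternating by peak. Copies of all 32-base stretches were counted on both strands of the whole assembly. Centre and flank were compared by exact McNemar tests, groups of peaks by Fisher's exact test, and means of log2 score and GC content by permutation with 100000 resamples, whose smallest possible p is 1.0e-05, all two-sided at 0.05. Benjamini-Hochberg adjustment covered 12 comparisons. Peaks that share repeated sequence are not independent, so p-values and intervals over repeated or all members do not measure counting error alone. Families were built with blastn 2.17.0. The members named were those with the 10 highest scores, the most copies, T-cell flanking genes or antigen receptor loci, those of the fullest intervals and clusters, and those nearest to the limit of 50 kb. Others, such as the members inside Gfi1 and the lower-scoring member of each repeated pair shown, were named after their values were seen. Scripts ran under Python 3.11.15 with scipy 1.17.1, numba 0.67.0, pysam 0.24.0, numpy 2.4.6 and pandas 2.3.3, and the steps were tested on simulated data.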

Additional observations from a re-analysis of the deposited data

How the results depend on the processing

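In all, 17 alternatives were planned and 4 were chosen after seeing the data (single-copy peaks only, repeated peaks only, any repeated 32 bases, and the motif TGTGGTT). Of 122 values recomputed, 81 kept their direction and their side of the threshold, or for the share of far peaks stayed within its interval. The cause of the changes was not tested. The share of far peaks was 30.5% beyond 25 kb, 14.9% beyond 100 kb, 14.7% with genes of every type, 26% above the median score, 27.7% in the upper quartile, 18.9% without repeated centres and 13.4% among single-copy peaks. The centre minus flank difference of the RUNX motif in members, 5.70 percentage points, fell short of the test within 200 bp (3.54), beyond 100 kb (2.85), above the median score (5.07) and in the upper quartile (4.59), and was -3.93 in repeated peaks. Against near intergenic peaks, the motif difference was not called beyond 25 kb (-3.22), without repeated centres (-5.49) and in single-copy peaks (-0.00111); against all other peaks it was 3.54 in single-copy peaks. The log2 score difference was -0.00332 against all other and -0.0227 against near intergenic single-copy peaks, and against near intergenic peaks it was not called with genes of every type (0.0371), without input overlaps (0.0503) or without repeated centres (0.0488). The neighbour difference from all other peaks was called beyond 25 kb (3.24), beyond 100 kb (4.63) and within 5 kb (5.18), and was -0.083 without repeated centres, -3.03 in the upper quartile, -1.71 within 25 kb and -2.99 in single-copy peaks; from near intergenic peaks it was called in the upper quartile (-10.1) and within 25 kb (-5.11), and was 1.97 beyond 100 kb and 1.87 within 5 kb. Input overlap against all other peaks was 0.645 points with genes of every type and -0.0465 in single-copy peaks; against near intergenic peaks it was called beyond 25 kb (1.52) and 100 kb (1.68), and was -0.321 with genes of every type and -0.184 in single-copy peaks. In single-copy peaks the GC difference from near intergenic peaks (-0.593) and the GATA difference (-4.22) were not called, and the motif difference between scores above and up to the median was 17.7 points, against -0.385 over all members. The repeated-centre differences and the GC difference from all other peaks were called under each of the 8 and 7 alternatives run on them. Depth is unknown and limits which peaks could be called. No paired analysis was possible because each group has 1 library.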

Other observations

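Some intergenic intervals outside those described above held several single-copy members and were chosen here after their values were seen. The 284 kb between Fam125b and Pbx3, a homeobox factor, on chromosome 2 held 4 single-copy members with scores of 16 to 18, 1 of them with the RUNX motif. On both sides of Med13l, a Mediator subunit, on chromosome 5 there were 3 single-copy members, with scores of 16 to 49 towards 2410131K14Rik and a score of 16 in each of those towards Tbx3, and 1 in each group held the motif. All 3 single-copy members between Pmepa1 and 1700021F07Rik on chromosome 2 held the motif, with scores of 16 to 37. None of the 3 between Asb1 and Twist2 on chromosome 1 did, at scores of 18 to 28. These intervals were not compared with others by a test.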
